A study of Caenorhabditis elegans with 2 samples.

Results

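In many C. elegans gene pairs 2 protein-coding genes lie back to back and are read in opposite directions from the DNA between them, a divergent promoter. Chromatin immunoprecipitation of FAX-1 in embryos gave 743 candidate binding regions at such promoters, out of 12691 candidate regions on the nuclear chromosomes. A region was counted when its summit was 500 bp or less from a protein-coding 5′ end that had another such end at most 1000 bp upstream, on the opposite strand and pointing away. Regions with a summit within 500 bp of a tRNA, snoRNA or snRNA gene were dropped, which removed 11. The study's list of reproducible regions, filtered by the irreproducible discovery rate between replicates, held 154 of the 743, called final regions here. The 589 others were in the loosely thresholded list of the pooled replicates but not in the final list, and are called other candidates. The final list has 830 rows, and its lowest signal value was that of row 830 of the pooled list by signal. Final regions are thus also the stronger ones by pooled signal, and some were low in 1 replicate, as given below.

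All values come from 1 group of 2 biological replicates of the strain OP164. These hermaphrodite animals stably carry FAX-1 with a C-terminal GFP-FLAG tag, and chromatin of whole late embryos, taken 4 h after synchronization by egg bleaching, was sheared by sonication and precipitated with an antibody against GFP. The promoter and the cells that drive the tagged protein are not given in the labels. The strain is 1 transgenic line, and whole animals mix all tissues, so the cells in which a region was bound cannot be told apart. A control file entered the pooled calling, per the metadata texts deposited with the replicates, and a strain without the tag was not analysed here. With 1 group, no comparison of conditions was possible. Intervals are 95% intervals of a share (Wilson) or of a difference between shares (Newcombe). They cover counting error over regions only, and neighbouring regions are not independent.

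FAX-1 is a nuclear hormone receptor, a transcription factor that binds DNA through zinc fingers, and is known for its part in axon guidance and interneuron identity. Genes at divergent promoters share the DNA between their 5′ ends, so a peak there cannot be assigned to either gene from its position alone. In C. elegans many such genes serve functions that every cell needs, such as translation and RNA processing. Peaks of many unrelated factors are known to fall at the open chromatin of active promoters in this animal, which a list of peaks for 1 factor cannot separate from specific binding.

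Windows reaching 75 bp to either side of the summit are shown first, as examples of the sequence at the summit that is described below. They are those of the 6 strongest final regions and the 2 strongest other candidates on chromosomes II, III, IV, V and X. Some final regions stronger than the last of these 6 are not shown, and their GC content is given below. The windows are RefSeq sequence of WBcel235 (the ce11 build), plus strand, 5′ to 3′. Capitals mark CCGCCC on either strand (so also GGGCGG) and GCGC. The final windows are, in order, IV:390427-390577, IV:1745686-1745836, III:10461248-10461398, III:4568672-4568822, IV:17087541-17087691 and IV:4660545-4660695. The other candidates, the last in the list, are V:5505201-5505351 and II:6951461-6951611.
ears-2/uncp-18: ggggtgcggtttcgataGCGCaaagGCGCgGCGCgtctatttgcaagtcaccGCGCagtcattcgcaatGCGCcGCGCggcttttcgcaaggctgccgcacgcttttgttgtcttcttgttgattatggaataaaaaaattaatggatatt
Y41D4A.6/Y41D4A.4: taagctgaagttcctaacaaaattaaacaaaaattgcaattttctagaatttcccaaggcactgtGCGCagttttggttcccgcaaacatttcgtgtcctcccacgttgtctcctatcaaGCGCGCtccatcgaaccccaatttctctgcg
ecps-1/atx-2: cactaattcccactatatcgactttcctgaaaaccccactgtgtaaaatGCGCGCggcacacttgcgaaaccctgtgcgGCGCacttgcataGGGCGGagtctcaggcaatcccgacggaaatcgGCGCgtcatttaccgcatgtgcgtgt
mlcd-1/idhg-1: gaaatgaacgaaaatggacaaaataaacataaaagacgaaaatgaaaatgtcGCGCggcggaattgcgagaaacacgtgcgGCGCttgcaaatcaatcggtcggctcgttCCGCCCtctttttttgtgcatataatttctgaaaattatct
snx-13/snr-1: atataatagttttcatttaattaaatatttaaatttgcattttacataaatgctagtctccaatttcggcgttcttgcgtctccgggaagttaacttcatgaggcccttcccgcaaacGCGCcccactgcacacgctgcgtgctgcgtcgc
F29B9.11/jmjd-1.2: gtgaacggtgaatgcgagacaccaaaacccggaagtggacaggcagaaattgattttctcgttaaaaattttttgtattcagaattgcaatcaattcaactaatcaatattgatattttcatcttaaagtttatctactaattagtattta
dnj-19/nhr-47: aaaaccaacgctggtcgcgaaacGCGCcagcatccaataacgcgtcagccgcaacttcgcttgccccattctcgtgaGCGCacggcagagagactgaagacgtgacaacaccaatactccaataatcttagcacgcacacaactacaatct
malt-1/ceh-38: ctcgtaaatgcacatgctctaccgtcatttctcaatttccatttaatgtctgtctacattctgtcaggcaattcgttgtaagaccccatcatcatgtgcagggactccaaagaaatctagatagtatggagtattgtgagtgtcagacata
Of the final windows, ecps-1/atx-2 and mlcd-1/idhg-1 each held CCGCCC 1 time. The window of ears-2/uncp-18 held GCGC 6 times and that of F29B9.11/jmjd-1.2 held neither, with a GC content of 51.0% and 30.5%. Neither other candidate held CCGCCC, dnj-19/nhr-47 held GCGC 2 times, and malt-1/ceh-38 held neither. Neither marked sequence was thus in all of these windows.

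Candidates at divergent promoters were in the final list more often than those at other protein-coding starts or away from starts. The share was 154 of 743, or 20.7% (interval 18.0 to 23.8), beside 4.7% of all 12203 nuclear candidates not near RNA genes. At promoters with no opposing gene it was 208 of 2623, or 7.93% (6.96 to 9.03). Away from gene starts it was 211 of 8837, or 2.39% (2.09 to 2.73). The candidates near tRNA, snoRNA or snRNA genes, left out here, were final in 210 of 488 cases, or 43.0% (38.7 to 47.5). The share at divergent promoters was higher than that at single-direction promoters by 12.8 percentage points (9.83 to 16.0), and by 7.88 points when only the stronger 50% of the final list counted. It was higher than that away from gene starts by 18.3 percentage points (15.6 to 21.4). A summit at a divergent promoter has more gene starts in reach, and how that bears on the share was not tested.

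The same order held in each replicate taken alone. Among the 830 strongest rows of replicate 1, as many as the final list has, were 20.3% of the divergent-promoter regions, 8.01% of the single-direction regions and 2.44% of those away from gene starts, beside 4.73% of all. For replicate 2 the shares were 19.5%, 7.13% and 2.75%, beside 4.71%. Peak height is the deposited signal value, a score of the authors' peak caller whose scale no label or header states. Its median over final regions was 147.3 (quartiles 117.2 to 212.2) at divergent and 136.6 (110.6 to 187.8) at single-direction promoters. These ranges overlap.

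Counted over gene pairs, which the annotation fixes without reference to peaks, most divergent promoters had no final region. Of 1794 divergent pairs, 160 had one (8.92%, 7.69 to 10.3), 566 had other candidates only and 1068 had no candidate. No more than 2 candidates lay at any pair, and 45 pairs had 2. The share did not follow the distance between the starts. Of pairs with starts 1 to 200 bp apart 17 of 248 had a final region (6.85%, 4.32 to 10.7), of those 201 to 400 bp apart 48 of 484 (9.92%, 7.56 to 12.9), and of those 801 to 1000 bp apart 24 of 290 (8.28%, 5.62 to 12.02). All these intervals overlap. Over genes, 312 of the 3539 genes in pairs (8.82%) had a final region near a start of the pair. By the stricter count of a final summit within 500 bp of the gene's own start, 271 of the 3539 (7.66%) had one. Of the 16434 genes in no divergent pair 214 had one (1.3%). A summit near both starts of a pair counted for both genes, so 154 final regions gave the 271 genes. This counting raises the share of genes in pairs, and by how much was not tested.

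Final summits lay in the DNA between the starts far more often than other candidates did. Of final summits 140 of 154 were between the starts (90.9%, 85.3 to 94.5), against 362 of 589 others (61.5%, 57.5 to 65.3). The difference was 29.4 percentage points (22.7 to 34.8). Read the other way, 27.9% of candidates with a summit between the starts were final (24.1 to 32.0), and 5.81% of those with a summit inside a gene (3.49 to 9.51). By annotation 139 final summits were intergenic, 9 in the non-coding part of an exon, 4 in an intron and 2 in a coding exon. Of the other candidates 361 were intergenic, 74 in a non-coding exon part, 47 in an intron and 107 in a coding exon.

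Within the space between the starts, final and other summits were compared by their distance to the starts. The starts were a median of 457.5 bp apart at final regions (quartiles 309.25 to 674.5) and 476 bp at others (296 to 678). For summits between the starts, the median distance to the nearest start was 138 bp (65.75 to 198.75, n = 140) and 130.5 bp (82.5 to 211.75, n = 362). Of summits between the starts 59.3% of final (51.0 to 67.1) and 62.2% of other ones (57.1 to 67.0) were in the central 50% of the gap, a difference of -2.87 percentage points whose interval (-12.5 to 6.44) includes 0. Of 5 classes of distance between the starts, 1 had an interval that left out 0. With starts 601 to 800 bp apart, 14 of 30 final and 52 of 76 other summits were central, a difference of -21.8 points (-40.7 to -1.28), and the median distances to the nearest start were 182 and 241 bp. Where the starts were 801 to 1000 bp apart, 10 of 20 final (29.9 to 70.1%) and 25 of 59 other summits (30.6 to 55.1%) were central. An even spread would place 50% there, which both intervals include. In that class final summits were a median of 228 bp from the nearest start (170.75 to 304.5, n = 20), and other summits 195 bp (87 to 296, n = 59). The rule keeps only summits within 500 bp of a start, for both kinds alike. In gaps of at most 1000 bp this leaves out no summit between the starts. Where the starts were 201 to 400 bp apart, the final median was 85 bp (59 to 134, n = 39).

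**Figure D1:**
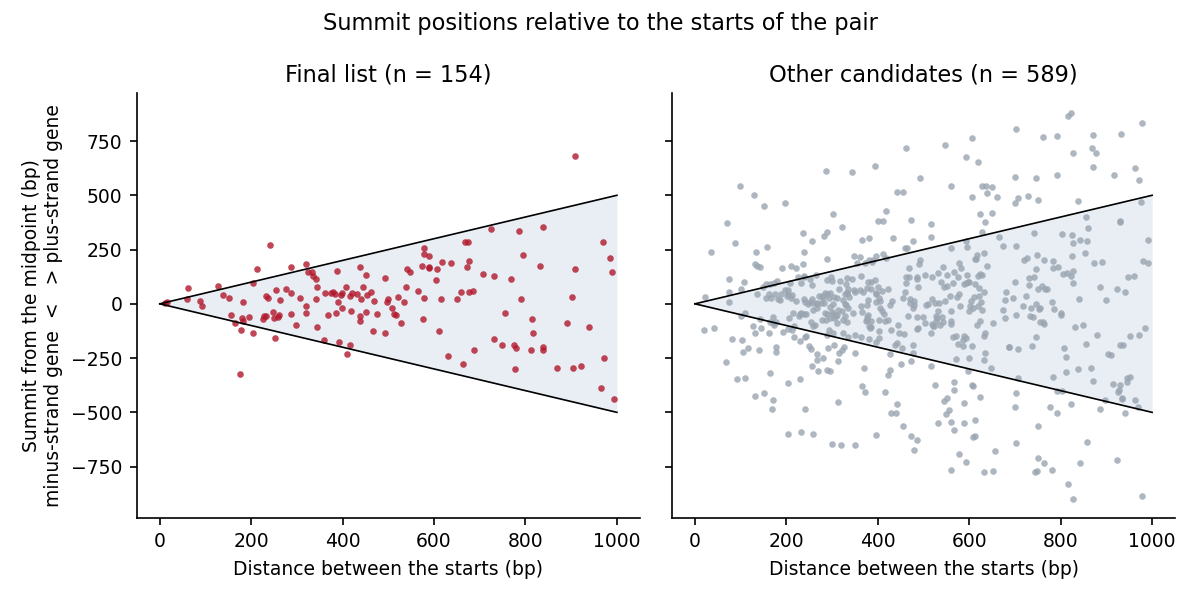
Position of each summit (y axis, bp from the midpoint between the starts, the plus-strand gene upwards) against the distance between the starts (x axis, bp), for final regions (left) and other candidates (right), each point 1 region; the lines mark the starts and the shading the space between them. Of final summits 140 of 154 lie between the starts, and of other summits 362 of 589.

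The strongest final regions lay at genes of many functions. The highest was at IV:390307-390661, between ears-2, a mitochondrial glutamyl-tRNA synthetase, and uncp-18, annotated in RefSeq as a syntaxin-binding protein. Its signal was 672.5 in the pooled list, 448.8 in replicate 1 and 223.8 in replicate 2, rank 10 in replicate 1 and 14 in replicate 2. The starts are 92 bp apart and the summit was 34 bp from the start of ears-2. Replicate 1 gave higher values than replicate 2 in each final region named here, and the lists have different floors (21.0 and 12.7), so replicates are compared by rank.

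The second strongest lay between vps-51, a subunit of an endosomal tethering complex, and lin-35, the worm retinoblastoma protein (chromosome I, 5807245 to 5807633; pooled 615.8, replicates 413.3 and 205.9). The starts are 418 bp apart and the summit was 178 bp from that of vps-51. The third, between Y41D4A.6 and Y41D4A.4 (IV:1745454-1745929), had a pooled signal of 553.2 and replicate signals of 379.2 and 178.4. The 3 strongest were thus among the 26 highest rows of each replicate.

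The fourth region (III:10461150-10461489; pooled 532.1, replicates 356.0 and 181.4) was 66 bp from the start of atx-2, the ataxin-2 homolog, an RNA-binding protein. The other gene of the pair is ecps-1, annotated with a domain of the proteasome component Ecm29. The starts are 838 bp apart, and a separate final region (III:10460644-10460938; pooled 284.6, replicates 193.0 and 92.5) lay nearer to that of ecps-1. This pair thus carried a final region at either end of its gap.

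The others among the 15 strongest are not in order of strength below, and what their genes encode is given as background only. The region between Y71G12B.30 and chaf-2, a chromatin assembly factor subunit, had signals of 531.8 pooled, 406.1 and 132.0 (chromosome I, 1822984 to 1823414). That between snx-13, a sorting nexin, and snr-1, an Sm protein of the spliceosomal snRNPs, had 483.0 pooled, 315.8 and 166.7 (IV:17087337-17087762). That between F29B9.11 and the histone demethylase gene jmjd-1.2 had 414.4 pooled, 253.4 and 161.3 (IV:4660438-4660833). All of these were between the starts, 178 to 371 bp from the nearest.

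The region at mlcd-1/idhg-1, sixth in strength, was the next after that at chaf-2. The region 50 bp from the start of idhg-1, an isocitrate dehydrogenase subunit, paired with mlcd-1, malonyl-CoA decarboxylase, had 525.5 pooled, 354.5 and 161.0 (III:4568615-4568895). The region at spd-5, a scaffold of the centrosome, and npp-6, a nucleoporin, had 393.5 pooled, 245.7 and 145.3 (chromosome I, 5176260 to 5176577). It was the exception among the 15 strongest, with a summit 235 bp inside spd-5, in an intron. That between F57C2.5 and spat-1, the worm Bora homolog that acts with cell-cycle kinases, had 376.6 pooled, 251.2 and 125.7 (II:14528305-14528698).

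The remaining ones of the 15 strongest had pooled signals of 362.7 to 423.2. They were at Y92H12BR.2/Y92H12BR.3, at rnf-121/C16C10.4, where rnf-121 is annotated as a ubiquitin ligase, and at dnj-29/ndua-2, genes of a DnaJ chaperone and a complex I subunit. The others were at nmad-1/hach-1, genes annotated as a DNA adenine demethylase and a mitochondrial 3-hydroxyisobutyryl-CoA hydrolase, and at tag-266/tag-267. Their replicate signals were 243.8 to 284.4 in replicate 1 and 109.4 to 149.2 in replicate 2. The 15 came from 4 chromosomes, and 14 of them had a summit between the starts.

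The limit of the final list cut through a continuous range. Final regions nearest to it were algn-14/M02B7.2 (IV:3803232-3803667) at 98.7, coq-5/ufm-1 (III:7858533-7858968) and dli-1/tin-9.2 (IV:13098542-13099177), both at 98.3. Just under it were dnj-19/nhr-47 (V:5505058-5505493) at 98.0, malt-1/ceh-38 (II:6951318-6951753) at 97.6 and nmat-1/ucr-2.1 (X:12017910-12018345) at 97.0. The lowest final member was row 830 of the pooled list by signal, and the highest other candidate row 832. The first pair under the limit includes a nuclear receptor gene and the next a homeobox gene, and both were uneven between replicates. The region at nhr-47 ranked 669 in replicate 1 (signal 70.8) and 2286 in replicate 2 (25.8). That at ceh-38 ranked 655 (71.3) and 3892 (21.7).

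The final regions had similar orders in both replicates. All 154 had a row in both replicates, with signals from 53.8 to 448.8 (median 92.8) in replicate 1 and from 21.9 to 223.8 (median 51.5) in replicate 2. Spearman's correlation across these regions was 0.75, and 0.40 across the 355 other candidates with rows in both. These are descriptions across regions that share the 2 libraries, and the final list was itself selected for reproducibility. It also split the candidates by pooled signal, since its 830 rows reach down to 98.3, the signal of row 830 of the pooled list. Each contrast of final regions with other candidates is thus also one of stronger with weaker pooled peaks. The other candidates thus spanned a narrower range, 21.0 to 75.5 in replicate 1, so the 2 correlations cannot be set against each other. Of final regions 139 (90.3%, 84.6 to 94.0) were among the strongest 830 rows of replicate 1 and 131 (85.1%, 78.6 to 89.8) among those of replicate 2. The background shares of 4.73% and 4.71% above apply, but the final list rests on the same reads. Both replicates had 118, only replicate 1 had 21, only replicate 2 had 13, and neither had the regions at algn-14/M02B7.2 and coq-5/ufm-1. Of the 589 other candidates 12 reached those rows in replicate 1, 14 in replicate 2 and 0 in both.

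Some final regions rested mainly on replicate 1. The largest difference in rank was at F26F4.9/cee-1 (III:4912271-4912706; pooled 99.2), with rank 579 (signal 76.1) in replicate 1 and 3777 (21.9) in replicate 2. The region at mre-11/wdr-5.3 (V:10736735-10737170; pooled 116.1) ranked 494 (82.9) and 2314 (25.7). The gene mre-11 encodes a nuclease of DNA break repair. The region at haf-6/smg-2 (chromosome I, 1175645 to 1176080; pooled 156.8) ranked 202 (131.2) and 1838 (27.8), smg-2 being a helicase of nonsense-mediated mRNA decay.

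**Figure D2:**
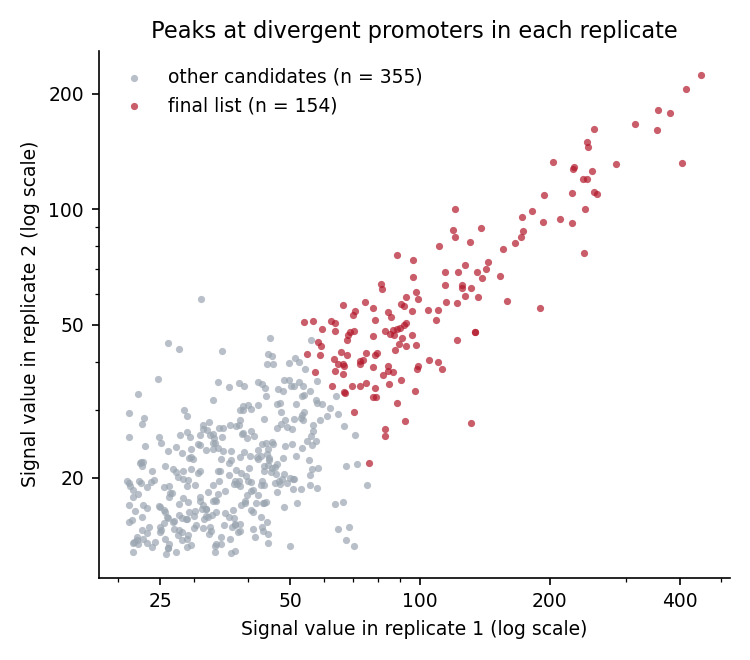
Signal value of each divergent-promoter region in replicate 1 (x axis) and replicate 2 (y axis), both on log scales, for the 154 final regions and the 355 other candidates with a row in both. Final regions form the upper right of the cloud, from 53.8 to 448.8 in replicate 1.

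At final regions the summits were rich in G and C within an AT-rich neighbourhood. The median GC content of the windows, 75 bp to either side, was 43.0% (quartiles 38.4 to 47.0) at final regions and 39.1% (33.1 to 44.4) at other candidates. At the midpoints of divergent pairs with no candidate it was 33.1% (28.5 to 37.7). Final regions stronger than F29B9.11/jmjd-1.2 whose windows are not shown above were vps-51/lin-35, Y71G12B.30/chaf-2 and Y92H12BR.2/Y92H12BR.3. Their windows had a GC content of 34.4%, 39.1% and 39.7%, under the final median, and none held CCGCCC. In 50-bp bins, the mean GC content of final regions was 50.4% at the summit, 39.9% and 38.9% in the next bins to the left and right, and 32.2% and 32.5% at 100 bp. At other candidates it was 41.2% at the summit, and 35.1% and 34.9% at 100 bp. The rise was thus present in both and higher in the final regions. Final regions at single-direction promoters had a median of 44.4% in these windows, so the high GC content was not particular to divergent promoters. How GC content bears on the recovery of DNA in these libraries was not tested.

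**Figure D3:**
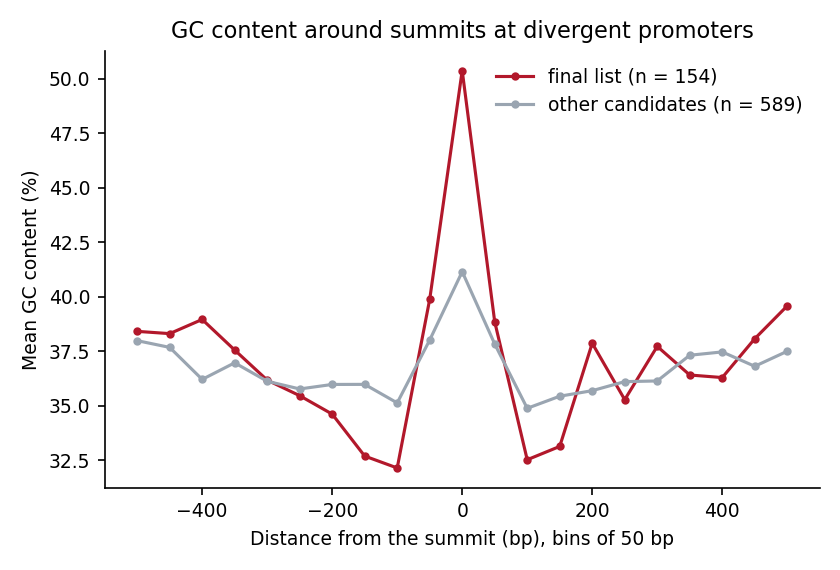
Mean GC content (y axis, percent) in 50-bp bins against distance from the summit (x axis, bp) for the 154 final regions and the 589 other candidates. The final regions peak at 50.4% at the summit and fall to 32.2% and 32.5% at 100 bp on either side, and the other candidates peak at 41.2%.

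Of 13 short sequences searched on both strands in the same windows, CCGCCC, which belongs to the GC-rich boxes bound by Sp1-type zinc-finger proteins, differed most. It was in 32 of 154 final windows (20.8%, 15.1 to 27.9) and 42 of 589 others (7.13%, 5.32 to 9.50), a difference of 13.6 percentage points (7.51 to 21.0). At single-direction promoters it was in 11.1% of final windows, 9.72 points lower than at divergent ones (2.18 to 17.7). At the midpoints of pairs with no candidate it was in 3.46%. The share in final windows was higher by 17.3 points (11.5 to 24.5) than that. Summits and midpoints are different positions, and with midpoints on both sides, 9.38% of pairs with a final region and 3.46% of those with no candidate held it, a difference of 5.91 points (2.08 to 11.5). At 500 bp to either side of final summits it was in 2.6%. Of 44 occurrences within 150 bp of final summits, 26 lay within 50 bp of the summit. At other candidates 34 of 65 did, so a position near the summit was not particular to final regions.

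CCGCCC goes with GC content, so windows were also compared within GC classes. In windows of 40 to 45% GC it was in 10 of 40 final and 9 of 110 other windows, or 25% (14.2 to 40.2) and 8.18% (4.36 to 14.8). In windows of at least 45% it was in 17 of 58 and 21 of 146, or 29.3% (19.2 to 42.01) and 14.4% (9.60 to 21.0). In windows of 35 to 40% it was in 4 of 42 and 8 of 146 (9.52% and 5.48%), and below 35% in 1 of 14 and 4 of 187 (7.14% and 2.14%). The final share was thus higher in each GC class. The intervals of the single shares overlap, which does not decide whether the shares differ. No interval of the difference was computed within GC classes. Restricted to summits between the starts, a comparison added after seeing the data, the shares were 22.1% and 9.12% and differed by 13.0 points (6.05 to 21.0). The 32 final regions with CCGCCC had a median pooled signal of 158.2 (124.7 to 308.0), and the 122 without had 144.1 (116.0 to 208.7), ranges that overlap.

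Most other sequences did not set final regions apart from other candidates. TTTCAG, a sequence of worm splice acceptor sites, was in 19.5% of final and 28.4% of other windows, a difference of -8.87 points (-15.5 to -1.08). With summits between the starts only the difference was -5.14 points and its interval (-12.6 to 3.36) included 0. AAGTCA and AGGTCA, hexamers known from nuclear receptor binding sites, were in 3.25% and 2.60% of final windows and in 4.07% and 2.72% of others. Neither difference left 0 out of its interval (-3.49 to 3.51 and -2.41 to 3.91). At the midpoints of pairs with no candidate the shares were 7.87% and 4.03%. The final share of AAGTCA was lower than that by 4.62 points, with an interval of -7.18 to -0.237 for the difference.

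The other 9 also had intervals that included 0 against other candidates. They were the GAGA-type sequence GAGAGA, the GATA-type sequence TGATAA, the homeodomain-type sequence TAATTA and the TATA-box sequence TATAAA, then the T run TTTTTTTT, the E-box sequence CACGTG, the bZIP-type sequence TGACGT, the CCAAT box and the E2F-type sequence TTCGCG. Against midpoints of pairs with no candidate, GAGAGA (16.2% against 9.64%) and TTCGCG (10.4% against 4.96%) were more frequent in final windows. TGATAA (5.84% against 16.9%), TATAAA (12.3% against 21.7%) and TTTTTTTT (12.3% against 20.2%) were less frequent. With midpoints of pairs with a final region in place of summits, the intervals included 0 for GAGAGA (-1.82 to 9.09), TTCGCG (-0.465 to 8.57) and TTTTTTTT (-8.42 to 4.29). They left out 0 for TGATAA (-14.9 to -6.15) and TATAAA (-14.2 to -2.75). The comparisons with midpoints, that of AAGTCA among them, were not matched for GC content. Its median was 43.0% in final windows, 36.4% at midpoints of pairs with a final region and 33.1% at those with no candidate. A match to any of these letters is a description and not a site.

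The X chromosome had few of these regions and also few divergent pairs. It makes up 17.7% of the nuclear genome and holds 81 of the 1794 pairs (4.52%). Of those pairs 2 had a final region (2.47%, 0.680 to 8.56), against 158 of 1713 autosomal pairs (9.22%), a difference of -6.75 points (-9.07 to -0.528). Counted over candidates at divergent promoters, 2 of 32 on X were final (6.25%) and 21.4% on the autosomes, a difference of -15.1 points (-20.6 to -0.941). At single-direction promoters 6.33% of candidates on X and 8.28% on the autosomes were final, a difference of -1.95 points whose interval (-4.19 to 0.832) included 0. The 2 regions on X were at nra-3/tsp-21 (X:9932379-9933030; pooled 129.2, replicates 84.2 and 39.2), in an intron of the tetraspanin gene tsp-21, and at C27C12.1/C27C12.4 (X:14853853-14854488; pooled 124.2, replicates 77.8 and 46.8).

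Among autosomes, pairs on chromosomes I and III had final regions most often, 42 of 323 (13.0%, 9.77 to 17.1) and 38 of 303 (12.5%, 9.28 to 16.7). Chromosome V had the fewest per pair, 27 of 435 (6.21%, 4.30 to 8.88). The intervals of I and V do not overlap. Those of II, IV and V do, at 7.25%, 8.41% and 6.21%. Counted over candidates at divergent promoters, 42 of 164 on I (25.6%), 37 of 165 on III (22.4%) and 25 of 149 on V (16.8%) were final. At single-direction promoters 32 of 451 candidates on I, 42 of 412 on III and 33 of 413 on V were final. Chromosome I thus did not have a higher share than V there. Chromosome V holds large families of genes, such as chemoreceptors, that are expressed in few cells, and their part in its share was not tested.

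**Figure D4:**
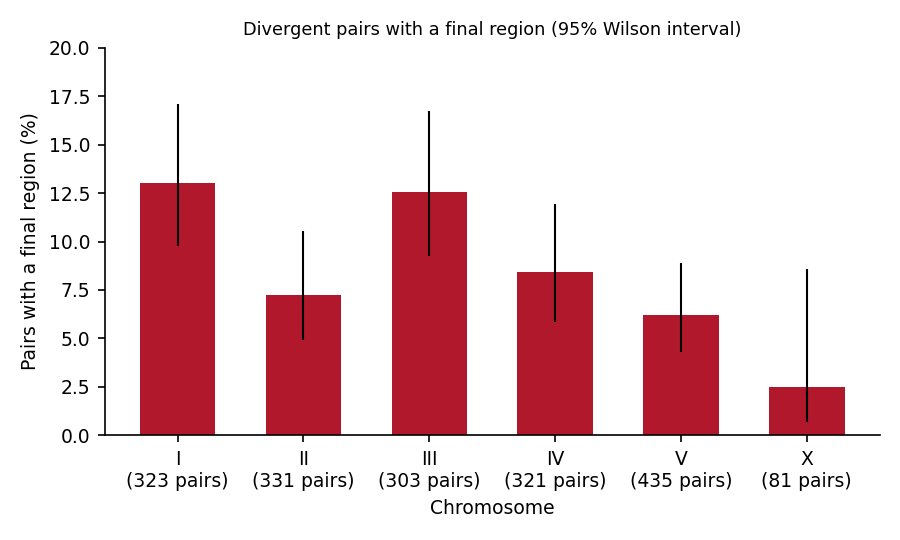
Divergent pairs with a final region (y axis, percent of the chromosome's pairs) for each nuclear chromosome, bars from 0 with 95% Wilson intervals. The values run from 2.47% on X to 13.0% on I.

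Gene groups were described by how many of their members in divergent pairs had a final region near a start of the pair, beside 8.82% of all such genes. These lists were chosen with earlier results known and carry no test. Cytosolic ribosomal proteins had 9 of 48 (18.8%, 10.2 to 31.9), a share whose interval lies above 8.82%. Of the 48, 28 had other candidates only and 11 had no candidate. Over all 1794 pairs, 566 had other candidates only and 1068 had none, so having any candidate was more common in this list. How that bears on its final share was not tested. The 9 were rpl-12, rpl-15, rpl-20, rpl-22, rpl-43, rps-1, rps-19, rps-20 and rps-23. The strongest, at rpl-15 (IV:654822-655040), had a pooled signal of 246.2, replicates 166.1 and 81.9. That at rpl-12 had 216.0, 142.3 and 70.01, with a summit 22 bp from the start of rpl-12, and shares its promoter with lin-54, a DNA-binding subunit of the DREAM repressor complex. The other 7 had pooled signals of 109.7 to 196.9. The summits lay 22 to 745 bp from the starts of the ribosomal genes, so some were nearer to the partner's start.

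RNA synthesis and processing were represented by a handful of genes. Splicing genes had 5 of 29 (17.2%, 7.60 to 34.5): prp-19, rsp-1, rsp-2, snr-1 and snr-2, with an interval that includes 8.82%. The region at prp-19 (III:5172554-5172804) had 359.2 pooled, 228.1 in replicate 1 and 129.0 in replicate 2. The genes rsp-1 and rsp-2, of SR splicing factors, share 1 promoter and 1 region (II:11453020-11453455; 124.6, 70.7 and 54.3). The list of RNA polymerase and Mediator genes had 3 of 12 (25%, 8.89 to 53.2), with an interval that starts just above 8.82%. They were mdt-6, mdt-9 and taf-7.2, the last a TBP-associated factor gene and of neither kind. The summit counted for mdt-6 was 898 bp from its own start and 8 bp from that of Y57E12AL.1. The strongest region of this list, at mdt-9 (IV:13386148-13386350), had 322.1, 225.6 and 92.0.

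Chaperones had 6 of 35 (17.1%, 8.10 to 32.7): cct-1 and cct-7, subunits of the cytosolic chaperonin, the mitochondrial chaperonin hsp-60, and the DnaJ genes dnj-12, dnj-28 and dnj-29. The region at hsp-60 (III:1618906-1619341) had 219.3 pooled, 159.4 and 57.8, with a summit 618 bp from its start. DNA replication and repair genes had 4 of 26 (15.4%, 6.15 to 33.5): pola-1, psf-2, rad-54.L and rfc-4. The region at pola-1, of the DNA polymerase alpha catalytic subunit (III:11142203-11142340), had 222.7, 144.0 and 73.0. Vesicle transport genes had 4 of 33 (12.1%, 4.82 to 27.3): arf-6, snx-3, snx-13 and vps-51. The intervals of these groups all include 8.82%.

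The groups with shares near or under the background were of both housekeeping and specialised kinds. Translation factors had 2 of 20, eef-1A.1 and eif-3.E, mitochondrial ribosomal proteins 2 of 26, mrpl-18 and mrpl-45, and aminoacyl-tRNA synthetases 1 of 11, ears-2. The proteasome had 1 of 21, rpn-7, and the respiratory chain 1 of 22, atp-5. For translation factors 16 of 20 had other candidates only, so most had a candidate below the limit. Histones had 2 of 62, his-67 and his-68, both from 1 region (chromosome I, 9988676 to 9989321; 157.0, 88.7 and 75.9). Histone genes have near-identical copies, and no label or header says how reads that match several copies were placed.

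Groups in which many genes are expressed in few cells had few members in divergent pairs, apart from chemoreceptors. Neuropeptides had 0 of 10 (upper limit 27.8%), homeobox genes 0 of 5 (43.4%), nuclear receptors 1 of 18 (5.56%, 0.988 to 25.8) and chemoreceptors 2 of 129 (1.55%, 0.426 to 5.48). Only the last interval lies under 8.82%, and those of the other groups include it. The 2 chemoreceptor genes were sre-1 and sri-5. The summit at sre-1 was 934 bp from its own start and 60 bp from that of its partner B0495.9, with signals of 298.6, 193.8 and 108.9 (II:7708673-7708875). The nuclear receptor gene was nhr-142 (V:5790869-5791304; 189.4, 110.5 and 80.03). Cuticle collagens had 2 of 21 (9.52%), col-2 and col-71.

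**Figure D5:**
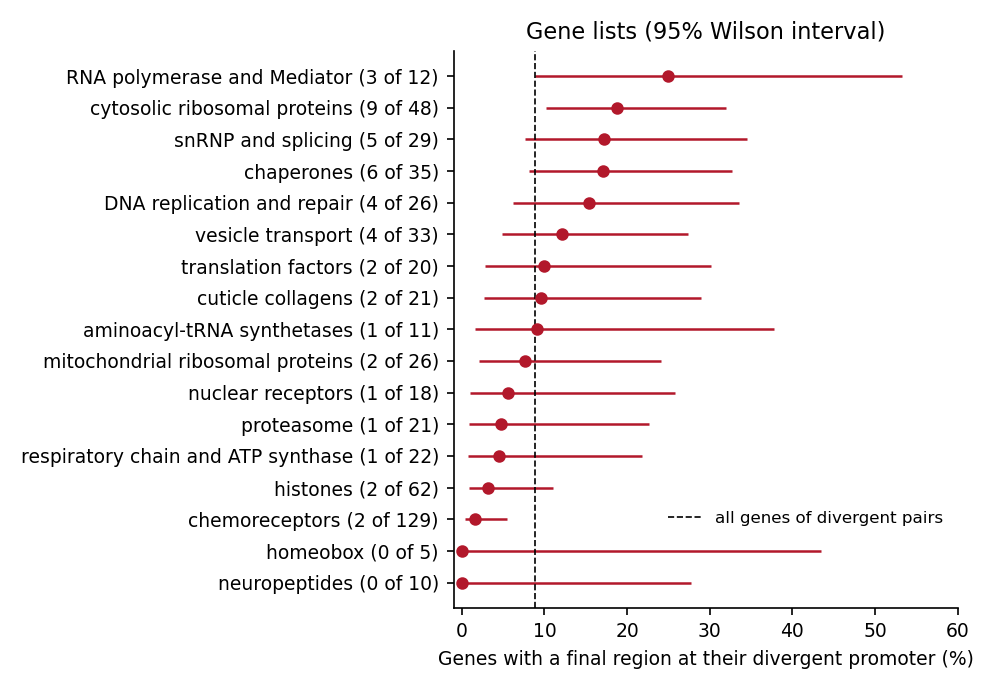
Share of the genes of each list in a divergent pair that had a final region at the pair (x axis, percent) with 95% Wilson intervals; counts stand in brackets and the dashed line marks 8.82%. Cytosolic ribosomal proteins lie above the line at 18.8%, and chemoreceptors under it at 1.55%.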

How the data were processed

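Peak lists of 2 biological replicates of anti-GFP ChIP-seq were used as deposited. They were made by the authors, on ce11: loose lists per replicate and for both pooled, and one filtered by the irreproducible discovery rate. The signal value in the authors' lists is a score of their peak caller, used only to rank and describe regions. Not given in the sources used here: the aligner, the caller, the threshold and the number of reads. Lists on ce10 were not used.

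Overlapping pooled rows were merged and represented by the row of highest signal. A region was final if it overlapped a row of the filtered list by at least 1 bp. Genes came from Ensembl release 115 and sequence from the RefSeq assembly WBcel235, which the chromosome names and lengths fit. Python 3.11.15 with numpy 2.4.6 and scipy 1.17.1 computed all values, and the methods were tested on simulated data. No p-value was computed.

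Members and lists were chosen with earlier results of these data known. The 17 gene lists were set by gene symbol. After values were seen, the chemoreceptor, replication, polymerase and homeobox lists were narrowed to remove genes of other kinds, among them srrt-1, which had a final region. Named regions are the 15 strongest final ones, the 3 on each side of the limit, the 3 whose replicate ranks differ most, and list genes with a final region. The alternatives were each replicate's own strongest rows, the stronger 50% of the final list, and other distances, windows and definitions. Depth could not be set against any value, because no read counts were used.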

Additional observations from a re-analysis of the deposited data

How the results depend on the processing

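No paired analysis was possible because the study has 1 group. Of 44 alternative values of differences whose interval left out 0, 0 changed sign. Of 132 of differences whose interval included 0, all for sequences, 22 changed sign. With each replicate's own strongest 830 rows in place of the final list, the share of divergent-promoter regions was 19.5 to 20.3% and its excess over single-direction promoters 12.3 to 12.4 points. The share of pairs was 8.31 to 8.75% and the excess of summits between the starts 28.2 to 29.2 points. The median distance between starts was 452 to 492 bp, the CCGCCC difference 13.3 points in each, and the GC content 43.0%. List genes with a final region were 45 to 51 of 528. With only the stronger 50% of the final list, which by construction has fewer regions, the share was 11.6%, its excess over single-direction promoters 7.88 points, the pairs 4.85% and the list genes 28. With summits within 1000 bp of a start the share was 16.5%. Median GC content was 47.5% in windows reaching 50 bp and 36.2% in windows reaching 150 bp to either side. The TTTCAG difference no longer left out 0 under 6 alternatives, with values from -10.7 to -3.30 points, and its cause was not tested. TATAAA left out 0 in replicate 1 alone (-7.80 points) and in the narrower windows (-5.33), TGATAA with starts up to 2000 bp apart (-5.13) and in the wider windows (-9.28), and CCAAT in the stronger 50% (13.9). Small lists changed by 1 gene with the replicate: homeobox genes had 1, ceh-38, and nuclear receptors 2, nhr-142 and nhr-47, by replicate 1 alone. The number of regions limits the precision of every share.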

Other observations

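Some other final regions are named here after their values were seen, as examples and not as a group. The region at piit-1/sas-5, where sas-5 is a centriole assembly gene, had signals of 239.7 in the pooled list, 155.8 in replicate 1 and 78.9 in replicate 2 (V:11610533-11610738). That at let-630/hcp-6, a condensin gene, had 212.6, 130.6 and 82.3. That at lin-61/bub-1, of a spindle checkpoint kinase, had 182.1, 122.2 and 57.0. The collagen gene col-2 shares its region with the kinetochore gene ndc-80 (166.2, 109.9 and 54.6), and the summit was nearer to the start of ndc-80. The region at fib-1/mut-15, where fib-1 encodes the nucleolar protein fibrillarin, had 311.9, 240.6 and 76.8.

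GCGC was chosen after the strongest windows had been read and is given as a description only. It was in 106 of 154 final windows (68.8%), 259 of 589 other windows (44.0%) and 20.1% of the midpoints of pairs with no candidate. With midpoints throughout, it was in 40.6% of pairs with a final region and 39.4% of pairs with other candidates only. In windows 500 bp to the left and right of final summits it was in 16.9% and 18.2%. In final windows at single-direction promoters it was in 59.6%, and away from gene starts in 50.2%. In windows of 40 to 45% GC it was in 36 of 40 final and 59 of 110 other ones (90% and 53.6%). In windows of at least 45% it was in 42 of 58 and 78 of 146 (72.4% and 53.4%). From 35 to 40% GC it was in 24 of 42 and 64 of 146 (57.1% and 43.8%). Below 35% it was in 4 of 14 and 58 of 187 (28.6% and 31.0%).

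Some other candidates were high in 1 replicate only. The region at dnj-14/glit-1 on the X chromosome ranked 324 in replicate 2 (signal 58.5) and 4914 in replicate 1 (31.0). That at cyn-4/copz-1 ranked 585 in replicate 1 (75.5) and 5905 in replicate 2 (19.1).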
